A study of Mus musculus with 6 samples.

Results

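The transcripts described here come from a list of 39 genes of blood vessel endothelium, angiogenic signalling and lymphatic endothelium, followed in RNA of mouse pancreatic islets with and without an alpha-cell deletion of Klf4. All 39 were found in the count table by their symbols, out of 55536 genes listed there. Islets were isolated from mice of strain C57B1/6J as the series spells it. The control libraries came from Klf4+/+;Gcg-iCre mice and the knockout libraries from Klf4fl/fl;Gcg-iCre mice, with 3 libraries of each genotype. Both groups therefore carried the Cre driver, which is expressed from the glucagon gene and acts in alpha cells, so neither the deletion nor the driver was directed at endothelial cells. The labels give the tissue and the genotype of each library, and do not say whether a library came from 1 animal or from pooled animals, so p-values measure the spread between these libraries.

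Islet capillaries are dense and fenestrated, and their endothelial cells carry hormones into the blood. Beta cells secrete VEGF-A, which acts on the receptors VEGFR1 and VEGFR2 (genes Flt1 and Kdr) of the neighbouring endothelium and keeps the capillaries open and fenestrated. Angiopoietins signal through the receptor TIE2 (gene Tek) and steady the vessel wall, while ETS and SOX family factors keep the endothelial programme active. Whole islets were sequenced, so fewer cells of a type and less RNA per cell cannot be told apart.

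Libraries held 101277200 to 110243918 counts. Klf4 itself, which is also transcribed outside alpha cells, was measured at 2015 to 3148 normalized counts in control and 2277 to 2540 in knockout libraries, and these ranges overlapped. Xist, the transcript of the inactive X chromosome, stood at 77938 to 108105 normalized counts in control and 12.4 to 30.2 in knockout libraries, while the Y-linked Ddx3y stood at 0 in all control and at 5599 to 6265 in knockout libraries. The controls thus carried the sex-linked transcripts of female mice and the knockouts those of male mice, although the labels give no sex. Every difference between the groups below therefore holds for genotype and for sex alike, which cannot be told apart. Endothelium was present in all 6 libraries: the defining markers Pecam1, Cdh5, Emcn and Plvap each held at least 6770 normalized counts in every library. The defining lymphatic transcript Ccl21a held 0 counts in all 6 libraries and Mmrn1 held 0 to 66.1 normalized counts, whereas Foxc2 held 49.1 to 88.7, Pdpn 135 to 227, Reln 603 to 909 and Itga9 971 to 1350, genes that other cells also transcribe. Ccl21a is annotated as 2 copies, and how reads matching both were counted is not given in the sources used here. The word "lymphatic" is used below for the genes and not for cells in these preparations.

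Of the 39 members, 4 rose in the knockout libraries and 0 fell at an adjusted p under 0.05 in DESeq2, fitted over the whole table. The 4 were Vwf, Ly6c1, Ly6a and Lyve1, with 1.39-fold to 1.63-fold higher means. Over all 17797 genes tested, 2.19% were called, 1.53% higher and 0.657% lower, against 10.3% of the members called higher. None of the 4 passed in the edgeR quasi-likelihood test, where the adjusted p-values were 0.186 for Vwf, 0.0803 for Ly6c1, 0.11 for Ly6a and 0.159 for Lyve1. That test called 0.0952% of all genes higher and 0.0198% lower. On 1 set of counts simulated from the DESeq2 fit, DESeq2 made more false calls than its threshold allows, and more than edgeR. The 4 calls rest on the less strict of the tests, and why the tests differed here was not tested. At an unadjusted p under 0.05, edgeR gave 9 members higher and 1 lower, against 5.71% and 3.78% of all genes, and DESeq2 gave 8 higher and 1 lower, against 6.51% and 5.03% of all genes.

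**Figure D1:**
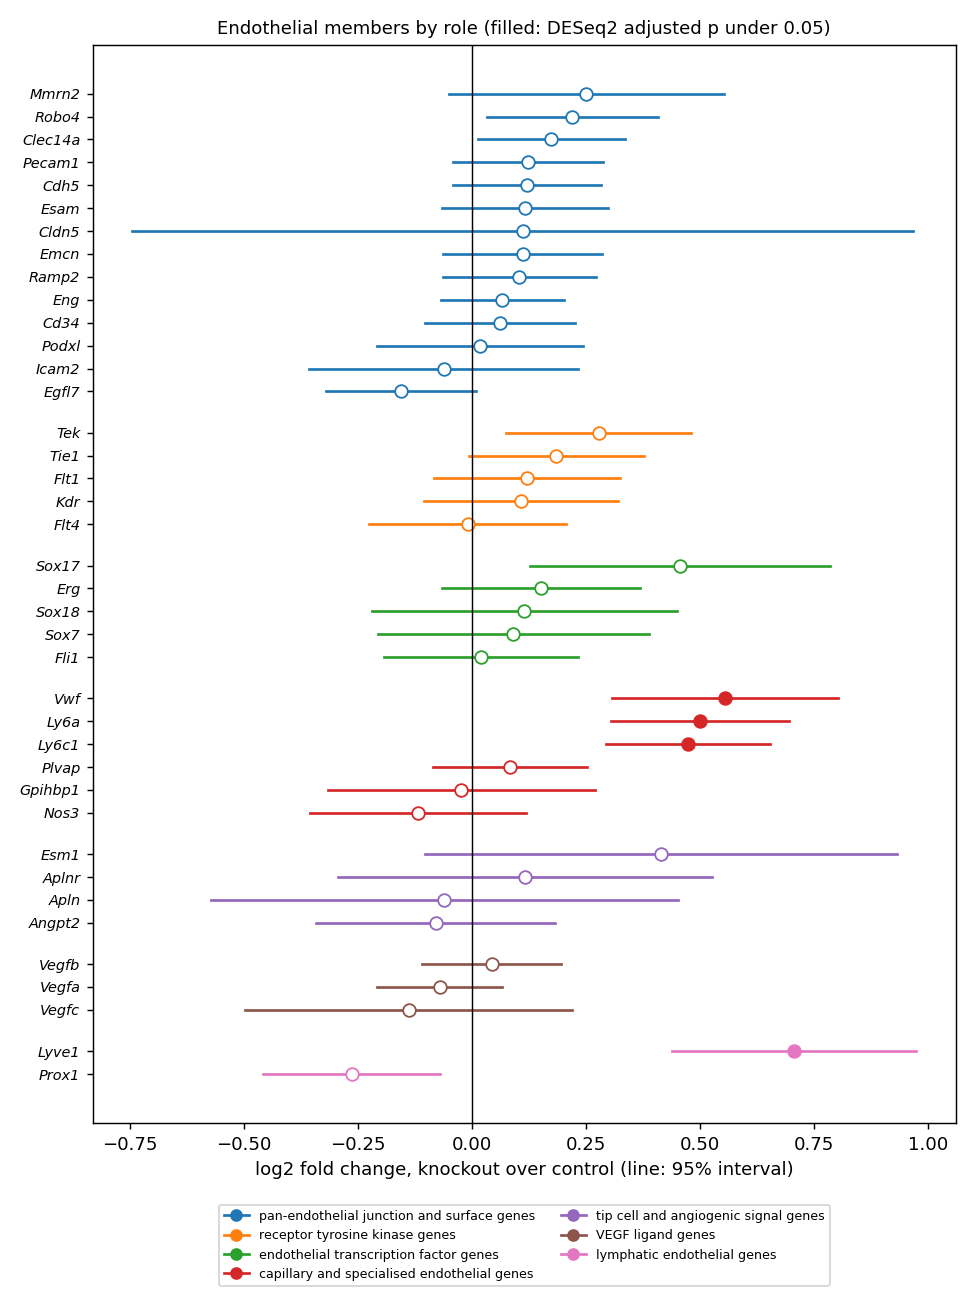
Log2 fold change of knockout over control for each of the 39 members (points) with its 95% interval (lines), grouped and coloured by role; filled points passed an adjusted p of 0.05 in DESeq2. The filled points are Vwf, Ly6a, Ly6c1 and Lyve1, and of the open points Sox17, at 0.46, and Esm1, at 0.41, lie farthest to the right.

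The other 35 members did not pass. With 1 library left out, 11 of them changed sign and 18 kept it but moved by more than 1.5 times. For 32 of the 35 the 95% interval of the fold change lay within 1.5-fold in either direction; the 3 exceptions were Cldn5, Sox17 and Esm1. Log2 fold changes were positive for 29 of the 39, against 48.4% of all genes tested. Their median was 0.11, against -0.0061 over all genes tested; it was 0.065 without knockout replicate 2 and 0.073 without knockout replicate 1. Members shared libraries and mostly one cell type, so these counts are descriptions of the list.

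Promoter sequence was at hand for 20 of the 39 members, and 3 are shown because ETS factors, 2 of which (Erg and Fli1) are members themselves, are known to act on endothelial promoters. Ly6c1 is the one member among the 4 that rose with an entry in the RefSeq promoter table used here, and Flt1 and Eng are the most abundant receptor tyrosine kinase and pan-endothelial members, by normalized count, that have one. The 250 bases before the start are given 5′ to 3′ on the gene's own strand, from RefSeq on GRCm38.p6, at chr15:75048838-75049087 (minus strand) for Ly6c1, the first listed of 2 starts, at chr5:147726012-147726261 (minus) for Flt1 and at chr2:32646345-32646594 (plus) for Eng. Capitals mark exact matches to AGGAAG, a longer form of the ETS core GGAA, on either strand. The shorter GGAA also occurs unmarked in each of these windows.
Ly6c1: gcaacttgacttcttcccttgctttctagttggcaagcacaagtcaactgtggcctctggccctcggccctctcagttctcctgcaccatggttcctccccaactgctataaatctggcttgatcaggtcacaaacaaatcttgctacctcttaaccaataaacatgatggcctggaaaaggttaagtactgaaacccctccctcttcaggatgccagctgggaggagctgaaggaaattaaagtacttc
Flt1: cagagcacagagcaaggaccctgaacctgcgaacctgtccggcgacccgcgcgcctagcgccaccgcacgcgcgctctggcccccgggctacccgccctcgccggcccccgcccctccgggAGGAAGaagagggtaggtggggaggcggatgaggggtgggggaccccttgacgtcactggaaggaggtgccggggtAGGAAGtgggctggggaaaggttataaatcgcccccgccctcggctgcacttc
Eng: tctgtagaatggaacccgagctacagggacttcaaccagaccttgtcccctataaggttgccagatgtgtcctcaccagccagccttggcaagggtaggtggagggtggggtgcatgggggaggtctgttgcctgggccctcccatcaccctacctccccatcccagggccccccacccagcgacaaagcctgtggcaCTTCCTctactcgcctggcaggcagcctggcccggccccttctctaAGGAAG

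The string AGGAAG occurred 2 times in the Flt1 window, 2 times in the Eng window and 0 times in the Ly6c1 window. Matches to the shorter ETS core GGAA, which the Ly6c1 window does hold, were not counted. AGGAAG was found before 8 of the 20 members, or 40.0%, and before 29.2% of 27025 genes with an entry of this length. The SOX core ACAAT, searched on both strands likewise, was found before 5 of the 20 members and 28.3% of all genes. The KLF core CACCC was found before 13 of the 20 (65.0%) and 51.3% of all genes. A match describes these letters in the window and nothing about binding.

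Genes of junctions and the cell surface that are shared by most endothelial cells gave no calls. Of the 14, 12 had a positive log2 fold change, with a median of 0.11; 0 passed in DESeq2 and 0 in edgeR; 2 had an unadjusted p under 0.05 in DESeq2, both higher. Pecam1, which encodes the junction protein CD31, held 11870, 11697 and 11446 normalized counts in controls 1, 2 and 3 (replicates are named in this order throughout) against 12953, 13727 and 11439 in knockouts 1, 2 and 3. Cdh5, which encodes VE-cadherin, stood at 7604, 7287 and 7619 against 8680, 8382 and 7401. For both genes knockout replicates 1 and 2 lay above every control and knockout replicate 3 lay among or just below them. Eng, the TGF-beta co-receptor endoglin, stood at 10443, 10128 and 10929 against 11358, 11040 and 10589. Its log2 fold change was 0.07 ± 0.07 (SE), with a 95% interval from -0.07 to 0.20. Podxl, a sialomucin of the luminal surface, had the most counts of this group, at 16019, 12687 and 17230 against 16064, 16416 and 14030, with control replicate 2 lowest.

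Robo4, a guidance receptor that steadies vessels, stood at 3080, 2775 and 3163 normalized counts in controls and at 3480, 3794 and 3225 in knockouts. The groups did not overlap, yet its log2 fold change of 0.22 ± 0.10 (SE) had a DESeq2 adjusted p of 0.293. Clec14a, a lectin-like receptor, stood at 2177, 2012 and 2024 against 2364, 2341 and 2303, a log2 fold change of 0.17 ± 0.08 (adjusted p = 0.371 in DESeq2). Its ligand gene Mmrn2 ran from 3709 to 5191 in controls and from 3985 to 5841 in knockouts, so that spread covered the difference. Ramp2, a co-receptor for adrenomedullin, was at 1565, 1580 and 1612 against 1760, 1689 and 1663, again without overlap (log2 fold change 0.10, DESeq2 adjusted p = 0.751). Of its exonic length, 33.4% is shared with Vps25 on the same strand, so its count is uncertain.

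Egfl7, a secreted vessel factor, was the one gene of the group with all knockouts below all controls, at 1803, 1855 and 1847 against 1671, 1601 and 1671. Its log2 fold change of -0.16 ± 0.08 (SE) did not pass in DESeq2 (adjusted p = 0.484). Esam, Emcn and Cd34, which encode a junction protein and the sialomucins endomucin and CD34, had log2 fold changes of 0.12, 0.11 and 0.06. With each library left out in turn these ran from 0.051 to 0.17, from 0.064 to 0.17 and from 0.012 to 0.10. Icam2, an adhesion molecule for leukocytes, was at 459 to 591 against 463 to 533. Cldn5, a tight junction gene that is high in brain endothelium, was the rarest member at 48.8 to 59.5 normalized counts in controls and 29.9 to 81.2 in knockouts, and its interval, from -0.74 to 0.97 on the log2 scale, did not exclude a change of 1.5-fold. Over the 39 members, groups did not overlap for 9 with the knockouts above and 2 with them below, against 9.42% and 8.54% of the 15811 genes averaging 50 or more normalized counts, as all 39 members did.

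Of the 5 receptor tyrosine kinase genes, 0 passed in DESeq2 or edgeR, and 1 had an unadjusted p under 0.05 in DESeq2. Flt1, the decoy-like VEGF receptor, was at 22487, 18143 and 23987 normalized counts in controls and 23797, 24305 and 22164 in knockouts. Kdr, the main signalling receptor for VEGF-A, was at 18454, 15188 and 20387 against 20454, 19799 and 17946. Both had their lowest value in control replicate 2, and the knockouts lay within or next to the range of the other controls. Tek, the angiopoietin receptor TIE2, was at 2476, 2225 and 2246 against 2986, 2961 and 2475. Knockout replicate 3 was just under the highest control, and the log2 fold change of 0.28 ± 0.10 (SE) had a DESeq2 adjusted p of 0.16. Without knockout replicate 3 it was 0.36 with an adjusted p of 0.0219. Tie1, the partner receptor of TIE2, was at 5788, 4785 and 5540 against 6437, 6275 and 5602, with knockout replicate 3 below control replicate 1. Its log2 fold change was 0.18 ± 0.10 (SE), and ran from 0.11 to 0.24 with each library left out in turn. The log2 fold change of Flt4, the VEGF-C receptor VEGFR3, was -0.01 ± 0.11.

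Transcription factor genes of the endothelial programme likewise gave 0 calls of 5 in DESeq2 and in edgeR, with 1 gene at an unadjusted p under 0.05 in DESeq2. Sox17, a SOX factor known for its role in arterial endothelium, was at 296, 304 and 244 normalized counts in controls and at 369, 374 and 415 in knockouts. All 3 knockouts lay above all 3 controls, but the log2 fold change of 0.46 ± 0.17 (SE) had an adjusted p of 0.152 in DESeq2 and 0.375 in edgeR. Of its exonic length, 16.8% is shared with a non-coding gene on the opposite strand, Gm37587, which held 0 to 3.99 normalized counts. Sox18, which acts in blood and lymphatic vessel growth, was at 1865, 1732 and 2966 against 2388, 2427 and 2289. Control replicate 3 stood far above the other controls there; without it the log2 fold change went from 0.11 to 0.40 (DESeq2 adjusted p = 0.000143). Erg, Sox7 and Fli1 had log2 fold changes of 0.15, 0.09 and 0.02, with overlapping groups.

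The group of capillary and specialised genes held 3 of the 4 members that rose, and 0 of its 6 fell. Plvap encodes the protein of the fenestral diaphragms and was the member with the most counts per kilobase; it was at 28039, 27629 and 30236 normalized counts in controls and at 30745, 32914 and 27339 in knockouts. The control range lay inside that of the knockouts, and the 95% interval of its log2 fold change ran from -0.09 to 0.25. Vwf (ENSMUSG00000001930, chromosome 6, 125546774 to 125686679, plus strand, GRCm38) encodes von Willebrand factor, the clotting protein stored in endothelial granules, which is known to be higher in larger vessels than in capillaries. Controls held 1287, 1768 and 1419 normalized counts of it and knockouts 2078, 2189 and 2307. Every knockout lay above every control, and control replicate 2 was the closest. Mean levels were 1492 ± 249 and 2191 ± 115 (SD, n = 3 each). DESeq2 put the log2 fold change at 0.55 ± 0.13 (SE), with an adjusted p of 0.00168. The call was lost without knockout replicate 3, where the adjusted p was 0.0513 at a log2 fold change of 0.52.

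Ly6c1 and Ly6a encode GPI-anchored surface proteins of the Ly6 family and lie near each other on chromosome 15 (75044018 to 75048830 and 74994877 to 74998031, both minus strand, GRCm38). The endothelium of many mouse tissues carries both, and Ly6a, also called Sca-1, is also known from fibroblasts and blood progenitors. Ly6c1 was at 3042, 2847 and 3123 normalized counts in controls and at 4414, 4332 and 3765 in knockouts, with means of 3004 ± 142 and 4171 ± 354 (SD, n = 3 each). Ly6a was at 1884, 2049 and 2140 against 3079, 2907 and 2597, with means of 2024 ± 130 and 2861 ± 245. For both genes the gap between the groups exceeded the whole range of the controls. The log2 fold changes were 0.47 ± 0.09 (SE) for Ly6c1 and 0.50 ± 0.10 for Ly6a, with DESeq2 adjusted p-values of 9.19e-05 and 0.000152.

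Ly6 genes are close copies, which bears on how reads were assigned. The longest Ly6c1 transcript matched that of Ly6c2 at 97.6% of aligned bases and that of Ly6a at 86.2%. Of the stretches of 75 bases in Ly6c1 transcripts, 9.3% also occurred in Ly6c2 and 4.4% in Ly6a. Ly6c2 held only 15.4 to 27.4 normalized counts in any library, and the more distant family gene Ly6e, with no shared stretch, was level at a log2 fold change of 0.05. The split of reads between Ly6c1 and its copies is uncertain.

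Nos3 and Gpihbp1 complete this group and did not pass. Nos3, which encodes the endothelial nitric oxide synthase, was at 1333, 1056 and 1097 normalized counts in controls and at 1098, 1075 and 1040 in knockouts. Its exons overlap an antisense gene over 25.2% of their length, which held 1.89 to 14.4 normalized counts. Gpihbp1, which carries lipoprotein lipase to the capillary lumen, was at 917, 824 and 955 against 836, 1066 and 750.

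**Figure D2:**
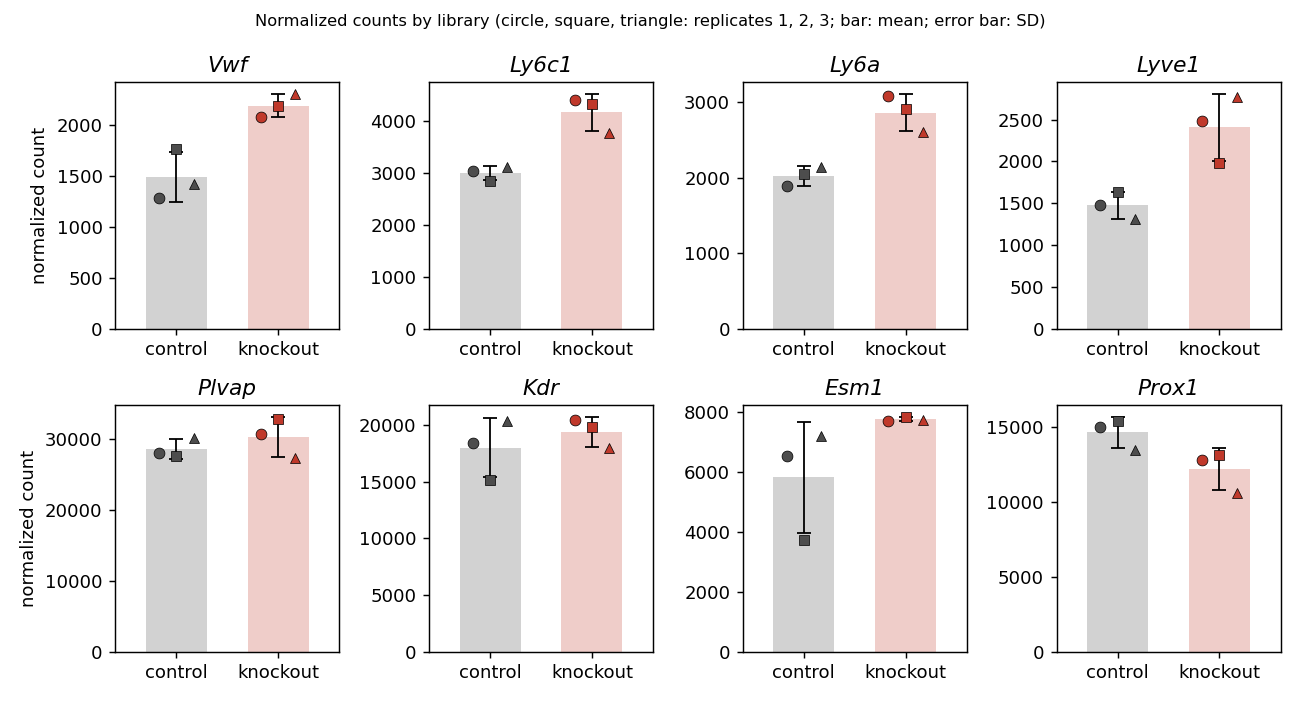
Normalized counts (vertical axes, from 0) of 8 members in each of the 3 control and 3 knockout libraries; bars are group means, error bars the SD, and circles, squares and triangles replicates 1, 2 and 3. In the upper row all knockout points lie above all control points for Vwf, Ly6c1, Ly6a and Lyve1; in the lower row Plvap and Kdr overlap, Esm1 has 1 low control, and the Prox1 knockouts lie below the controls.

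Tip cell and angiogenic signal genes, which mark growing vessels, gave 0 calls of 4 in either direction, with 0 at an unadjusted p under 0.05 in DESeq2 and 0 calls in edgeR. The controls were spread widely for Esm1, Aplnr and Apln. Esm1, a proteoglycan gene induced by VEGF, was at 6548, 3727 and 7201 normalized counts in controls and at 7695, 7834 and 7753 in knockouts. The knockouts lay together above all controls, control replicate 2 stood far below the other controls, and the log2 fold change of 0.41 ± 0.26 (SE) had a DESeq2 adjusted p of 0.607; without control replicate 2 it was 0.17 (adjusted p = 0.367). Aplnr, the apelin receptor, was at 1299, 1490 and 747 against 1352, 1409 and 1074. Apln, its ligand, was at 280, 334 and 180 against 278, 291 and 194, and Angpt2, which opposes angiopoietin 1 at TIE2, at 1061, 1238 and 909 against 1027, 1057 and 954. These 3 genes were highest in control replicate 2 and lowest in control replicate 3, while Esm1, Kdr, Flt1 and Podxl were lowest in control replicate 2 and highest in control replicate 3 among the controls.

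VEGF ligand genes did not differ beyond the spread between libraries, with 0 calls of 3 in DESeq2 and in edgeR and 0 at an unadjusted p under 0.05 in DESeq2. Vegfa, the ligand made by the endocrine cells, was at 41488, 40539 and 37071 normalized counts in controls and at 38667, 37650 and 37073 in knockouts. Its log2 fold change of -0.07 ± 0.07 (SE) had a 95% interval from -0.21 to 0.07. With each library left out in turn it ran from -0.12 to -0.039. Vegfb was at 3723, 3616 and 4034 against 3929, 3900 and 3887. Vegfc, the lymphatic growth factor, was at 502 to 559 in controls and at 410 to 616 in knockouts, with knockout replicate 2 above and the other knockouts below all controls.

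Of the 2 genes listed for lymphatic endothelium 1 rose, Lyve1, and the other, Prox1, did not pass. Lyve1 (chromosome 7, 110850607 to 110863239, minus strand, GRCm38) encodes a hyaluronan receptor of lymphatic endothelium and of some tissue macrophages. It stood at 1483, 1629 and 1312 normalized counts in controls and at 2477, 1976 and 2764 in knockouts, without overlap. The means were 1475 ± 159 and 2406 ± 399 (SD, n = 3 each), and the log2 fold change, 0.71 ± 0.14 (SE), was the largest among the 39 members, with an adjusted p of 8.41e-05 in DESeq2. Prox1 encodes the homeobox factor that specifies lymphatic endothelium and is also transcribed in islet endocrine cells. It was at 15009, 15401 and 13462 against 12807, 13142 and 10595, with every knockout below every control. Its log2 fold change of -0.26 ± 0.10 (SE) had an adjusted p of 0.167 in DESeq2 and 0.409 in edgeR; without control replicate 3 it was -0.32 with an adjusted p of 0.0248 in DESeq2, and without knockout replicate 3 it was -0.17 with an adjusted p of 0.573. Prox1 held 16.7 CPM (counts scaled to the library total) per kilobase of exon in controls against 4.83 for Lyve1. Of 6 lymphatic genes outside the list, 4 were given an adjusted p in DESeq2 (Pdpn, Reln, Foxc2 and Itga9); 0 of these 4 passed in DESeq2 or edgeR and 0 had an unadjusted p under 0.05 in DESeq2.

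To set a member beside the amount of endothelial RNA as a whole, each gene was compared with the 14 pan-endothelial members within each library. The value was the log2 of the gene's normalized count (plus 1) minus the mean of those of the 14. For members that other cells also transcribe, among them Vegfa, Prox1, Lyve1 and Ly6a, this ratio mixes cell types. The mean log2 level of the 14 pan-endothelial members was 11.57, 11.45 and 11.52 in controls against 11.68, 11.66 and 11.44 in knockouts, so the groups overlapped. Relative to it, Ly6c1 was at 0.00, 0.03 and 0.09 in controls and at 0.43, 0.42 and 0.44 in knockouts. The SD within a group was 0.05 and 0.01 there, against a difference of 0.39. Ly6a was at -0.69, -0.45 and -0.45 against -0.09, -0.15 and -0.09, a difference of 0.42. Ly6c1 was thus spread less among the knockouts on this relative scale than in its normalized counts.

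Vwf was at -1.24, -0.66 and -1.04 on that scale in controls and at -0.66, -0.56 and -0.26 in knockouts, so control replicate 2 almost met knockout replicate 1. Lyve1 was at -1.03, -0.78 and -1.16 against -0.40, -0.71 and -0.00, where control replicate 2 was close to knockout replicate 2. Tek was at -0.29, -0.33 and -0.38 against -0.14, -0.13 and -0.16, so that on this scale its groups did not overlap. Prox1 was at 2.30, 2.46 and 2.20 against 1.96, 2.02 and 1.93. Of the 25 members outside the reference genes, 7 had all knockouts above all controls (the 4 that rose, Tek, Tie1 and Sox17) and 1, Prox1, had them below, against 3.62% and 8.46% of the 15811 genes averaging 50 or more normalized counts. Those genes come from every cell type, so their shares are no like standard for endothelial members. Without the ratio the shares of the same genes were 9.42% and 8.54%.

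**Figure D3:**
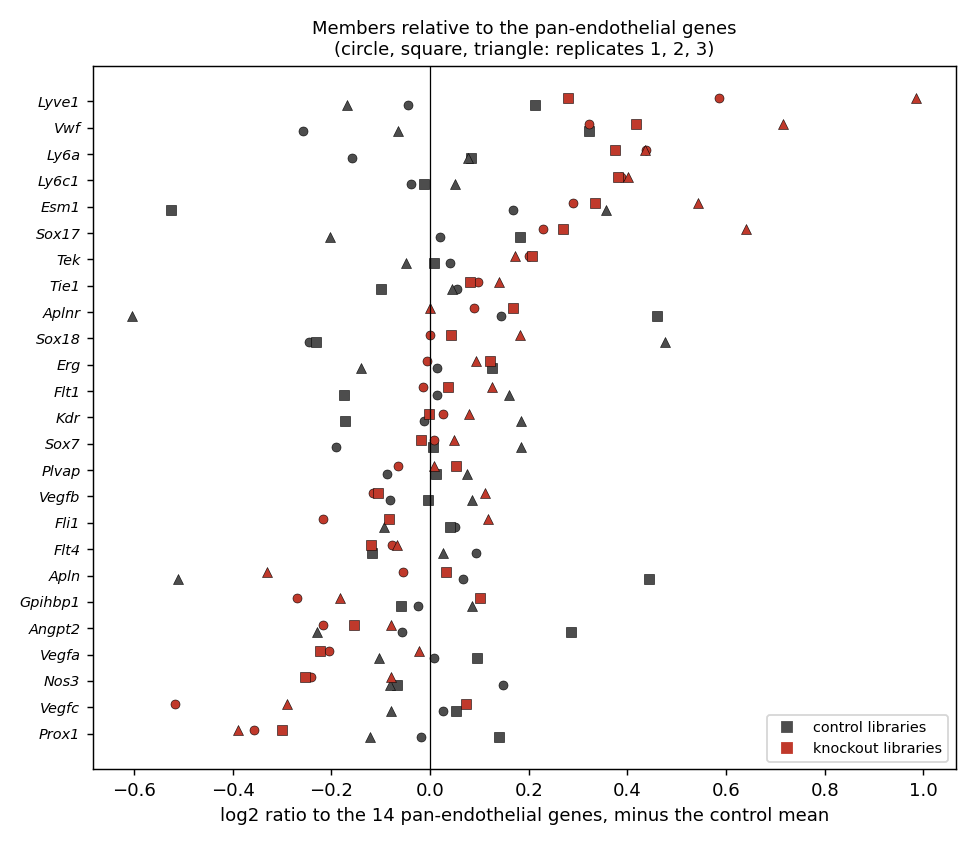
Log2 ratio of each of the 25 members outside the pan-endothelial group to those 14 genes, in each library (circles, squares and triangles are replicates 1, 2 and 3; grey control, red knockout), with the control mean set to 0. The red Ly6c1 points fall together near 0.39, the Tek points near 0.19, and the Prox1 points lie to the left of all grey ones.

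Compared per kilobase of exon, the members covered a wide range of levels. Plvap was the highest, at 138 ± 4.78 CPM per kilobase (SD, n = 3) in controls against 146 ± 11.0 in knockouts, followed by Vegfa at 88.6 ± 7.52 and 84.6 ± 1.97. Podxl at 26.7 ± 4.04, Esm1 at 26.5 ± 8.36 and Eng at 24.8 ± 0.852 in controls came next, and the control levels of these 3 genes did not differ from one another beyond their spread. Kdr, Pecam1, Ly6c1, Cdh5, Ly6a and Flt1 lay between 15.2 and 19.1 in controls. In knockouts Ly6c1 reached 23.8 ± 1.73 and Ly6a 22.8 ± 1.75, above Kdr at 20.6 ± 1.18 and Pecam1 at 19.6 ± 1.46. Vwf was among the rarest, at 0.887 ± 0.141 and 1.31 ± 0.0832, with Apln, Sox17 and Cldn5 below it in both groups. Together the 39 members took 0.210% to 0.237% of all counts in controls and 0.225% to 0.244% in knockouts.

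**Figure D4:**
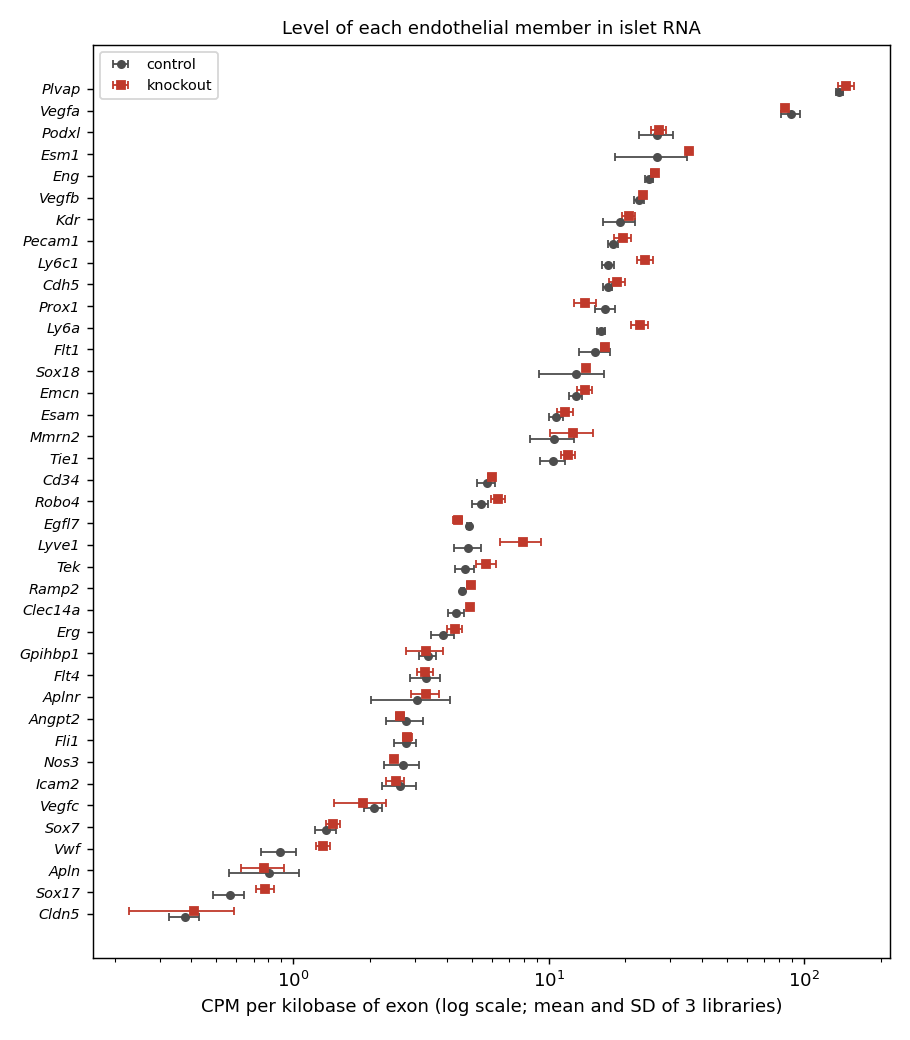
Level of each of the 39 members in CPM per kilobase of exon on a log axis, as the mean and SD of 3 control (grey circles) and 3 knockout (red squares) libraries, in the order of the control means. Plvap leads at 138 in controls and Cldn5 is last at 0.378; the clearest separations of red from grey are those of Ly6c1, Ly6a, Lyve1 and Vwf.

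Other genes of the vessel wall were taken from further lists, chosen like the members with earlier results of these data known. Among 29 angiogenic and Notch pathway genes 1 rose and 0 fell in DESeq2, and 0 passed in edgeR; at an unadjusted p under 0.05 in DESeq2 there were 3 higher and 5 lower. The 1 was Pdgfb, the endothelial ligand that recruits pericytes, at 1725, 1716 and 1676 normalized counts in controls and at 2059, 2112 and 2007 in knockouts (log2 fold change 0.27 ± 0.08 SE, DESeq2 adjusted p = 0.0449). Pdgfb was thus tight within each group. Its receptor gene Pdgfrb, a pericyte marker, was at 4330 to 4395 against 4635 to 4867 and did not pass (adjusted p = 0.448 in DESeq2). Hes1, a target of Notch, was at 982 to 1379 against 802 to 964, with a log2 fold change of -0.46 and a DESeq2 adjusted p of 0.0735. Of 26 further pan-endothelial genes 0 passed in DESeq2 or edgeR, with 3 higher and 1 lower at an unadjusted p under 0.05 in DESeq2 and a median log2 fold change of 0.08. Tspan7, which islet endocrine cells also transcribe, held 37.0% of the summed counts of these 26 in controls and 33.9% in knockouts, and had a log2 fold change of -0.13 (DESeq2 adjusted p = 0.589). The nearest was Adgrl4, an endothelial adhesion receptor, with a log2 fold change of 0.33 ± 0.10 and an adjusted p of 0.0512 in DESeq2.

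Markers of other cell types in the preparations were counted in the same fit. Of 6 fibroblast markers 5 rose in DESeq2, 3 of them in edgeR also, and their summed level was 45917 to 61531 normalized counts in controls and 90438 to 97229 in knockouts. The 5 were the collagen genes Col1a1, Col1a2 and Col3a1, the proteoglycan gene Dcn and the receptor gene Pdgfra, with log2 fold changes of 0.96, 0.89, 0.78, 0.46 and 0.87. Of 10 macrophage markers 4 rose in DESeq2 (Cd68, C1qb, C1qc and Mrc1, with log2 fold changes of 0.53, 0.40, 0.44 and 0.88) and 0 in edgeR, and the sum was 12316 to 13384 against 12800 to 15095. The most abundant of them, C1qa, had a negative log2 fold change of -0.27 (DESeq2 adjusted p = 0.348, unadjusted p = 0.0305). Of 8 acinar markers 0 passed in DESeq2 or edgeR, although all 8 had an unadjusted p under 0.05 in DESeq2, and their sum was 562893 to 1138869 against 1414041 to 1997894. By library, the fibroblast sum was 52568, 61531 and 45917 in controls and 97229, 90438 and 94372 in knockouts. It was highest in replicate 2 and lowest in replicate 3 of the controls and lowest in replicate 2 of the knockouts. Lyve1 had this order, and Vwf, Ly6c1 and Ly6a did not. The macrophage sum was 13246, 13384 and 12316 in controls and 15095, 13729 and 12800 in knockouts. The acinar sum was highest in replicate 2 of both groups, where Vwf and Lyve1 were highest among the controls and Lyve1 was lowest among the knockouts. The part of fibroblasts, macrophages or exocrine tissue in the rise of the 4 members was not tested.

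Pericyte and smooth muscle markers gave 0 calls of 10 in DESeq2 and in edgeR, with 0 higher and 2 lower at an unadjusted p under 0.05 in DESeq2, and summed to 50964 to 55292 normalized counts in controls and 47759 to 53895 in knockouts. Duct markers gave 2 of 6 higher in DESeq2 (Krt7 and Muc1, with log2 fold changes of 0.28 and 0.66) and 0 in edgeR, with sums of 25474 to 28903 against 31084 to 35765. The 8 lymphocyte markers were near 0 except Cd79a and Cd4, the 2 that were given an adjusted p in DESeq2; neither passed there and 0 of the 8 in edgeR, with 0 higher and 4 lower at an unadjusted p under 0.05 in DESeq2. Of the 5 red blood cell markers that could be fitted, led by the globin genes, 0 passed in DESeq2 or edgeR and 0 had an unadjusted p under 0.05 in DESeq2. The 5 adipocyte markers summed to at most 5.95 normalized counts in any library. Of 6 endocrine genes 1 fell in DESeq2, Gcg, with a log2 fold change of -0.56, and 0 passed in edgeR.

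**Figure D5:**
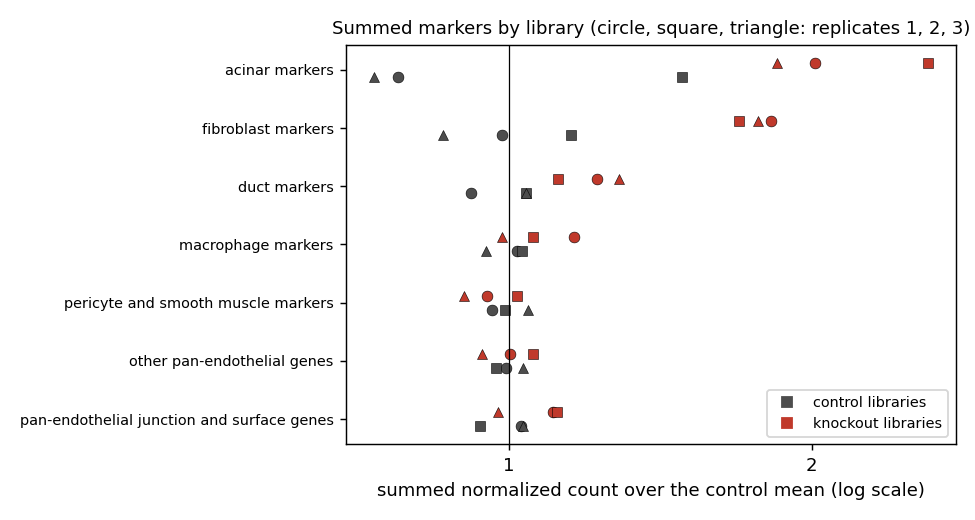
Summed normalized count of 7 gene groups in each library, divided by the mean of the 3 controls, on a log axis (circles, squares and triangles are replicates 1, 2 and 3; grey control, red knockout). Both pan-endothelial groups stay between 0.938 and 1.12, the one outside the members with 37.0% of its control sum from Tspan7, whereas the fibroblast sum of the knockouts lies between 1.70 and 1.82 and the acinar sum between 1.85 and 2.61.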

How the data were processed

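Polyadenylated RNA of whole islets was sequenced in 3 control and 3 knockout libraries. The authors deposited raw counts of reads per gene in 1 table; STAR, featureCounts and the build mm10 are named in the submitters' processing notes, and versions, strand and multimapping settings are not given in the sources used here. Gene identifiers matched GENCODE M21 (GRCm38), used here for coordinates and exon lengths; 0 sample columns were left unused.

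Following the design text of the series, DESeq2 1.42.0 in R 4.3.3 was run without batch terms, with genotype as the single term, on genes with at least 10 counts in total, and p-values were adjusted by Benjamini-Hochberg over all 17797 genes given one (threshold 0.05). Normalized counts are counts divided by DESeq2 size factors. The quasi-likelihood test of edgeR 4.0.16 (TMM), TMM factors in DESeq2, other filters, an adjusted p of 0.1, a replicate block and each library left out were alternatives. Tests were checked on 1 set of counts simulated from the DESeq2 fit to these libraries. Both tools recovered most of the changed genes with the right sign. The share of false calls was above the nominal 0.05 in both and higher in DESeq2 than in edgeR. The chi-square statistic between replicates was 40.0 to 120.0 times its degrees of freedom over 15820 genes, so the libraries differed by more than sampling noise. The members and gene lists were chosen with earlier results of these data known. All members are named; per-library values are given for those past the threshold, past an unadjusted p of 0.05 or without overlap and for the leading genes of each role, and genes of other lists are named where past the threshold (fold changes only, but for Pdgfb) or where a result turns on them; Adgrl4, Hes1, Pdgfrb, Ly6c2 and Ly6e were added after their values were seen. Vegfd was found in place of its older symbol. Counting error alone is small at 101277200 to 110243918 counts per library.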

Additional observations from a re-analysis of the deposited data

How the results depend on the processing

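The tool decided the calls: edgeR gave 0 members higher in place of 4 and 29 genes in all (24 higher, 5 lower) in place of 389 (272 higher, 117 lower), and the cause was not tested. An adjusted p of 0.1 gave 614 genes and the same 4 members. Leaving out each library in turn gave 153 genes (without knockout replicate 1) to 952 (without control replicate 3), 4 to 5 members higher and 0 to 1 lower, and a median log2 fold change of the members from 0.065 to 0.16 in place of 0.11. Without control replicate 3, Sox18 (0.40) and Prox1 (-0.32) passed; without knockout replicate 3, Tek (0.36) passed and Vwf (0.52) did not. Ly6c1, Ly6a and Lyve1 passed in 9 of the 10 alternatives at the 0.05 threshold other than the block, edgeR being the exception, and Vwf in 8. Over these 10, the adjusted p ran from 9.65e-09 to 0.186 for Vwf, from 8.38e-07 to 0.0803 for Ly6c1, from 1.51e-05 to 0.11 for Ly6a, from 1.45e-07 to 0.159 for Lyve1, from 0.0219 to 0.744 for Tek, from 0.000143 to 0.999 for Sox18 and from 0.0248 to 0.573 for Prox1. TMM factors in DESeq2 and the other filters kept 4 members higher and 0 lower.

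With the replicate number as a block, 405 genes, 4 members higher and 1 lower passed, the last being Prox1 (-0.27, adjusted p = 0.0167). The deviations of same-numbered libraries from their group means correlated at -0.0482, -0.0587 and 0.0105, so the numbers gave no sign of pairing, and only replicate 3 of the controls correlated best with its own number.

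Of 429 results of single members under the alternatives, 400 stayed on their side of 0 and of the threshold, 5 lost a call, 4 gained one and 20 changed sign, none of these 20 past the threshold. All 20 came from leaving out 1 library, and their cause was not tested. The log2 fold change then ran from -0.15 to 0.036 for Icam2, -0.16 to 0.435 for Cldn5, -0.10 to 0.11 for Podxl, -0.0017 to 0.21 for Kdr, -0.096 to 0.067 for Flt4, -0.023 to 0.074 for Fli1, -0.029 to 0.40 for Sox18, -0.18 to 0.081 for Gpihbp1, -0.27 to 0.14 for Apln, -0.13 to 0.32 for Aplnr and -0.18 to 0.039 for Angpt2. Of the 35 members not called, these 11 changed sign, 18 kept it but moved by more than 1.5 times without 1 library, and 6 stayed within 1.5 times.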
